A study of Canis lupus familiaris with 30 samples.

Results

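The genes described here are GNAS and 9 genes of the cAMP pathway that it feeds, measured by RNA sequencing in 30 canine thyroid tumors. The members were the rows of the count table with the symbols GNAS, PRKACA, PRKACB, PRKAR1A, PRKAR2B, PDE4B, PDE4D, PDE8B, CREM and NR4A1, which made 10 of the 30424 genes in the table. All 10 were present, and all 10 passed a filter that kept genes counted 10 times or more in 5 or more tumors, as did 18711 genes in all. The tumors were primary tumors of the thyroid gland of dogs, each sequenced once as total RNA, and the sample labels place them in 1 group without a histologic class or a treatment. No comparison between histologic classes was therefore made, and no normal thyroid was analysed here. TC1593, TC2289 and TC2402 are the tumors in which GNAS fusions were called from the RNA reads, and they are described one by one.

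GNAS encodes the stimulatory G protein alpha subunit, which passes the signal of hormone receptors to adenylyl cyclase. In the thyroid follicular cell the thyrotropin receptor (TSHR) uses this route, and cAMP drives both growth and hormone production. cAMP releases the catalytic subunits of protein kinase A (PKA), encoded by PRKACA and PRKACB, from the regulatory subunits encoded by PRKAR1A and PRKAR2B. Phosphodiesterases such as PDE4B, PDE4D and PDE8B break cAMP down. CREM encodes activators and repressors that bind cAMP response elements, and NR4A1 is an immediate-early nuclear receptor gene that cAMP, among other signals, turns on.

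The count of a gene was divided by a size factor for the library, giving a normalized count, and its level is log2 of that value plus 1. A difference of 1 in level is a doubling of the normalized count. Counted reads ranged from 12288945 to 45148677 per library (median 25569678), and the 10 most abundant genes took 15.6% to 40.3% of them. The summed level of 6 follicular cell markers had a median of 18.52 and was lowest in TC1088 (7.56), which had 12 counts of TG, the thyroglobulin gene, and 1 count of TSHR. TC538 had the smallest size factor (0.279) and the fewest genes with 10 or more counts, 13515 against 15444 in TC627, the next lowest. It was lowest for PRKACA and NR4A1 and highest for PRKAR2B, PDE4D and CREM, so these extremes rest on that library. TC538 also stood apart on the first principal component of the 25 tumors described next, with a score of -233 against -61.5 for the nearest tumor on that side. Clustering on 758 variable genes, with the members and the pathway genes left out, placed 25 tumors on 1 branch and TC1020, TC1473, TC1601, TC1936 and TC2289 on the other. The summed level of 5 C cell markers (CALCA, CALCB, SCG2, RET and CHGB) ran from 17.82 to 19.42 in those 5 tumors and from 5.42 to 13.13 in the 25. Taken singly, SCG2 and RET did not overlap between the branches, while CALCA was at 6.94 in TC2289 and 12.90 in TC22 of the larger branch, CALCB at 8.48 and 8.66 in the same tumors, and CHGB at 7.61 in TC1601 and 8.05 in TC22. The ranges of the branches did not overlap for 2.13% of all genes, and they overlapped for all 10 members. Correlations were therefore computed within the larger branch only. In bulk tissue, fewer cells of a type and less RNA per cell cannot be told apart.

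GNAS (ENSCAFG00000023756) had a level of 12.86 in the lowest tumor (TC1088), 14.35 at the median and 17.10 in the highest (TC1241), a span of 19.0-fold. TC1241 had 140748 normalized counts of GNAS, 6.75 times the median, and TC2289 had 116408, 5.58 times the median. The next tumor in the order, TC1869, had 35531 normalized counts, 1.70 times the median. TC1241 and TC2289 were thus high and apart from the other tumors, which followed each other closely down to TC627 (12.99) and TC1088. The standard deviation of GNAS over the 30 tumors was 0.94, larger than that of 49.2% of the genes tested. Its variation was therefore average for these tumors, with 2 of them well above the rest.

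The 3 tumors with called GNAS fusions did not share a position in the order of GNAS levels. TC2289 had a GNAS level of 16.83 and ranked 2 of 30. TC2402, at 14.33, ranked 16 and lay close to the median. TC1593, at 13.59, ranked 25 and lay below it. TC2289 was also among the highest tumors for PRKACB (10.71, rank 4), PDE4B (8.80, rank 4) and CREM (8.70, rank 3), and on the lower side for PRKAR1A (rank 20), PRKAR2B (rank 23) and PDE8B (rank 24). TC2289 lay on the smaller branch. That branch had a higher median than the larger one for PRKACB (10.71 against 9.46), PDE4B (8.63 against 7.35) and CREM (8.53 against 8.01). Its median was lower for PRKAR2B (10.70 against 11.15) and PDE8B (8.51 against 9.63), and higher for PRKAR1A (13.34 against 12.91). In TC1593 the ranks of 8 members, all but PDE4D and CREM, lay between 21 and 27, on the lower side. TC2402 ranked 6 for PRKACB, 8 for CREM, 9 for PDE8B and 10 for NR4A1, but 18 for PRKAR1A, 24 for PRKACA and 26 for PDE4B. In TC1241, the tumor with the highest GNAS level, PRKAR1A was rank 4 (13.45) and PDE4B rank 27 (6.09). Each tumor is 1 library, so these positions have no replicate error and were not tested.

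**Figure D1:**
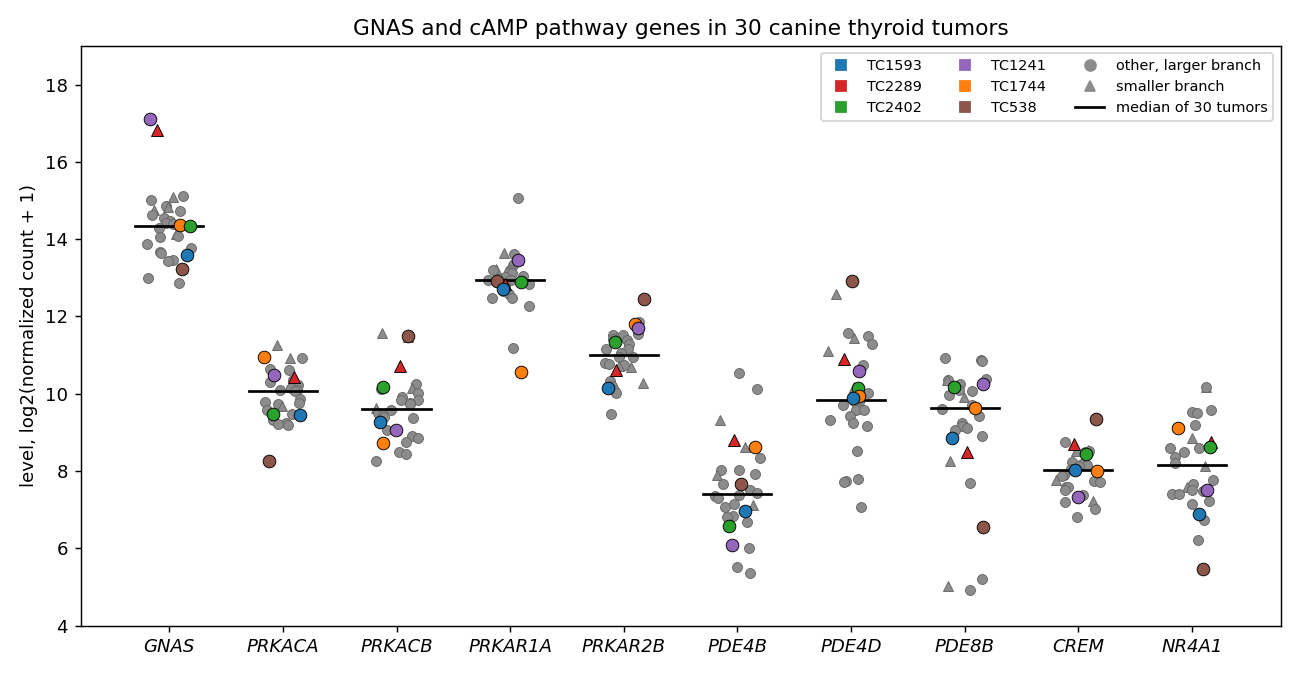
Level of each of the 10 genes in the 30 tumors (log2 of normalized count plus 1 on the vertical axis, 1 point per tumor, horizontal bar at the median); circles are tumors of the larger branch, triangles those of the smaller one, and 6 tumors are coloured by name. TC1241 and TC2289 lie above the other tumors for GNAS, TC1744 is lowest for PRKAR1A, and PDE8B has a tail of low tumors.

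The catalytic subunits of PKA had narrow ranges. PRKACA (ENSCAFG00000016488) ran from 8.26 in TC538 through a median of 10.08 to 11.26 in TC1601, with a standard deviation of 0.65. PRKACB (ENSCAFG00000020319) ran from 8.26 in TC2011 through 9.60 to 11.56 in TC1936, with a standard deviation of 0.86. The same tumor, TC538, was lowest for PRKACA and second highest for PRKACB (11.50). The difference in level PRKACA minus PRKACB, taken within each tumor, ran from -3.25 in TC538 to 2.22 in TC1744 with a median of 0.18, so the balance of the paralogs differed widely between tumors. Transcript length was not taken into account, so this difference ranks tumors and not the genes.

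Of the regulatory subunits, PRKAR1A had single tumors apart from the rest and PRKAR2B did not. PRKAR1A (ENSCAFG00000010999), which encodes the main type I regulatory subunit and is a tumor suppressor gene in human endocrine tissue, had a median level of 12.95. It was lowest in TC1744, at 10.56 (1613 counts, 0.191 of the median), and next lowest in TC1994, at 11.19 (0.296 of the median). The tumor above them, TC627, was at 12.26. The highest level was 15.06 in TC1088, 4.30 times the median, and the next highest was 13.63 in TC1936. PRKAR1A thus had 2 low tumors and 1 high tumor outside an otherwise tight range. PRKAR2B (ENSCAFG00000003952), a type II regulatory subunit, ran without such a gap from 9.47 in TC815 through 11.01 to 12.45 in TC538.

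The phosphodiesterases varied more than the kinase subunits. PDE4B (ENSCAFG00000018583) ran from 5.36 in TC812 through 7.41 to 10.53 in TC1088, a span of 36.7-fold, and TC1994 was second at 10.13. PDE4D (ENSCAFG00000007100) ran from 7.08 in TC67 through 9.84 to 12.92 in TC538, a span of 57.7-fold. PDE8B (ENSCAFG00000009253), a high-affinity cAMP phosphodiesterase known from steroid-producing and thyroid tissue, ran from 4.93 in TC2011 through 9.62 to 10.94 in TC2089. Its span of 66.4-fold was the widest of the 10 members, and its standard deviation of 1.67 was larger than that of 84.9% of genes. The low end was made of few tumors, as TC2011 (34 counts), TC1936 (30 counts) and TC1979 (45 counts) lay at 0.0375, 0.0403 and 0.046 of the median. TC538 followed at 0.118 of the median, with 26 counts. These 4 tumors did not all lie at the same end for the other phosphodiesterases, since TC538 was highest for PDE4D while TC2011 and TC1979 were among the 3 lowest.

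Of the genes that act after PKA, CREM (ENSCAFG00000003685) was the least variable member. Its level ran from 6.81 in TC1979 through 8.03 to 9.34 in TC538, and its standard deviation of 0.57 exceeded that of only 13.0% of genes. The same tumors, TC538 at the top and TC67, TC2011 and TC1979 at the bottom, stood at the ends of both CREM and PDE4D. NR4A1 (ENSCAFG00000007338) ran from 5.46 in TC538 (12 counts) through 8.16 to 10.18 in TC1601, a span of 26.9-fold. TC1979 was second at 10.17, and TC640 (6.21) and TC1088 (6.72) were next to the bottom.

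For the tumors at the ends of these orders, the 5 genes on each side of the member on the chromosome were read in the same tumor, in the gene order of the UU_Cfam_GSD_1.0 assembly. In TC1744, where PRKAR1A differed from its median by -2.39, all 10 neighbours were below their own medians. The neighbours' median difference was -1.64, from -3.04 in AMZ2 to -0.86 in KCNJ2, and GNA13, which encodes another G protein alpha subunit, was at -2.86. Over all genes that passed the filter, 49.5% were below their median in TC1744. Farther out, the medians of successive blocks of 10 genes were -1.85, -1.59 and -0.31 on the side of GNA13, and -0.89, 0.55 and -0.79 on the other. Low levels in TC1744 thus extended over a run of adjacent genes around PRKAR1A. All 10 neighbours lay on 1 side of their medians in 6 of the 54 combinations of member and tumor that were read with 10 neighbours. The others were PRKACA in TC538 (median -2.34) and TC627 (-0.97), all below, and PRKACB in TC538 (1.85), PRKACA in TC1601 (0.92) and NR4A1 in TC1601 (1.34), all above. In TC538 the blocks over 30 genes on each side had medians from -3.10 to -1.46 around PRKACA and 0.98 to 2.03 around PRKACB. Those around PRKACA ran from -0.77 to -0.42 in TC627 and 0.58 to 0.95 in TC1601. Around NR4A1 in TC1601 the outer blocks on 1 side had -0.16 and -0.04. How often 10 adjacent genes agree over all genes and tumors was not computed. In TC1994 the nearest genes differed from this: PRKAR1A differed from its median by -1.76 while 4 neighbours were above and 6 below theirs, with a median of -0.15. The farthest block of 10 genes on the side away from GNA13 was low in TC1994, with a median of -2.62 and all 10 below theirs. The other blocks there had medians from -0.20 to 0.55.

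In TC1088, where PRKAR1A was 2.10 above its median, the 5 neighbours on 1 side were raised as well, from 2.54 in MAP2K6 to 4.62 in FAM20A. On the other side the 5 neighbours ran from -0.27 in WIPI1 to 1.40 in ARSG. The high level in TC1088 therefore bordered on a raised run on 1 side only. For GNAS, TC1241 was 2.76 above the median, and the 5 neighbours on 1 side ran from 0.55 in NELFCD to 1.41 in CTSZ, while the 5 on the other ran from -1.59 to -0.02. The block of 10 genes on the higher side had a median of 0.77 and the block of 10 beyond it -0.15. In TC2289, 2.48 above the median for GNAS, the 10 neighbours ran from -0.91 in CTSZ to 1.74 in ATP5F1E with a median of 0.33. Its block of 10 genes on the side of CTSZ had a median of 1.04, with 3 below theirs, and the block beyond it -0.41. None of the 5 genes on each side reached the difference of GNAS itself in TC1241 or TC2289. Just beyond them, genes with low levels in most tumors did, and these were chosen after their values were seen. ZNF831, at place 6, had a level of 10.56 in TC1241 against a median of 3.93, with 9.55 in TC1473 and 8.33 in TC2289, and EDN3, the endothelin 3 gene at place 7, had 10.08 (1073 counts) against 2.97. TC1241 ranked first for both, and the highest level of EDN3 outside TC1241 and TC2289 was 5.22. In TC2289, PHACTR3 at place 8 had a level of 9.97 (782 counts) and was at 0 in 17 of the 30 tumors, and TC1473 had 9.41. TUBB1, at place 3, was also highest in TC1241 (9.06). The raised levels in TC1241 thus ran from GNAS through EDN3 on 1 side, without a matching run on the other. TC2289 also had raised genes on that side, ranking 1 for ATP5F1E, PRELID3B and PHACTR3. The genes nearest to GNAS there were not raised in it: NELFCD ranked 23, CTSZ 24 and TUBB1 19.

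The low PDE8B tumors also differed in their neighbourhood. In TC2011, with a PDE8B difference of -4.69, 8 of 10 neighbours were below theirs (median -1.22), and the 6 blocks of 10 genes around it had medians between -1.53 and -0.95. In TC1979, with a difference of -4.40, 8 of 10 neighbours were below their medians (median -1.29). In TC1936, with a difference of -4.59, 4 neighbours were below and 6 above (median 0.05), and in TC538, 9 of 10 were above (median 1.34). PDE8B was lower than its 5 neighbours on each side in TC2011, TC1979, TC1936 and TC538. DNA copy number was not analysed here, and its part in these values was not tested.

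**Figure D2:**
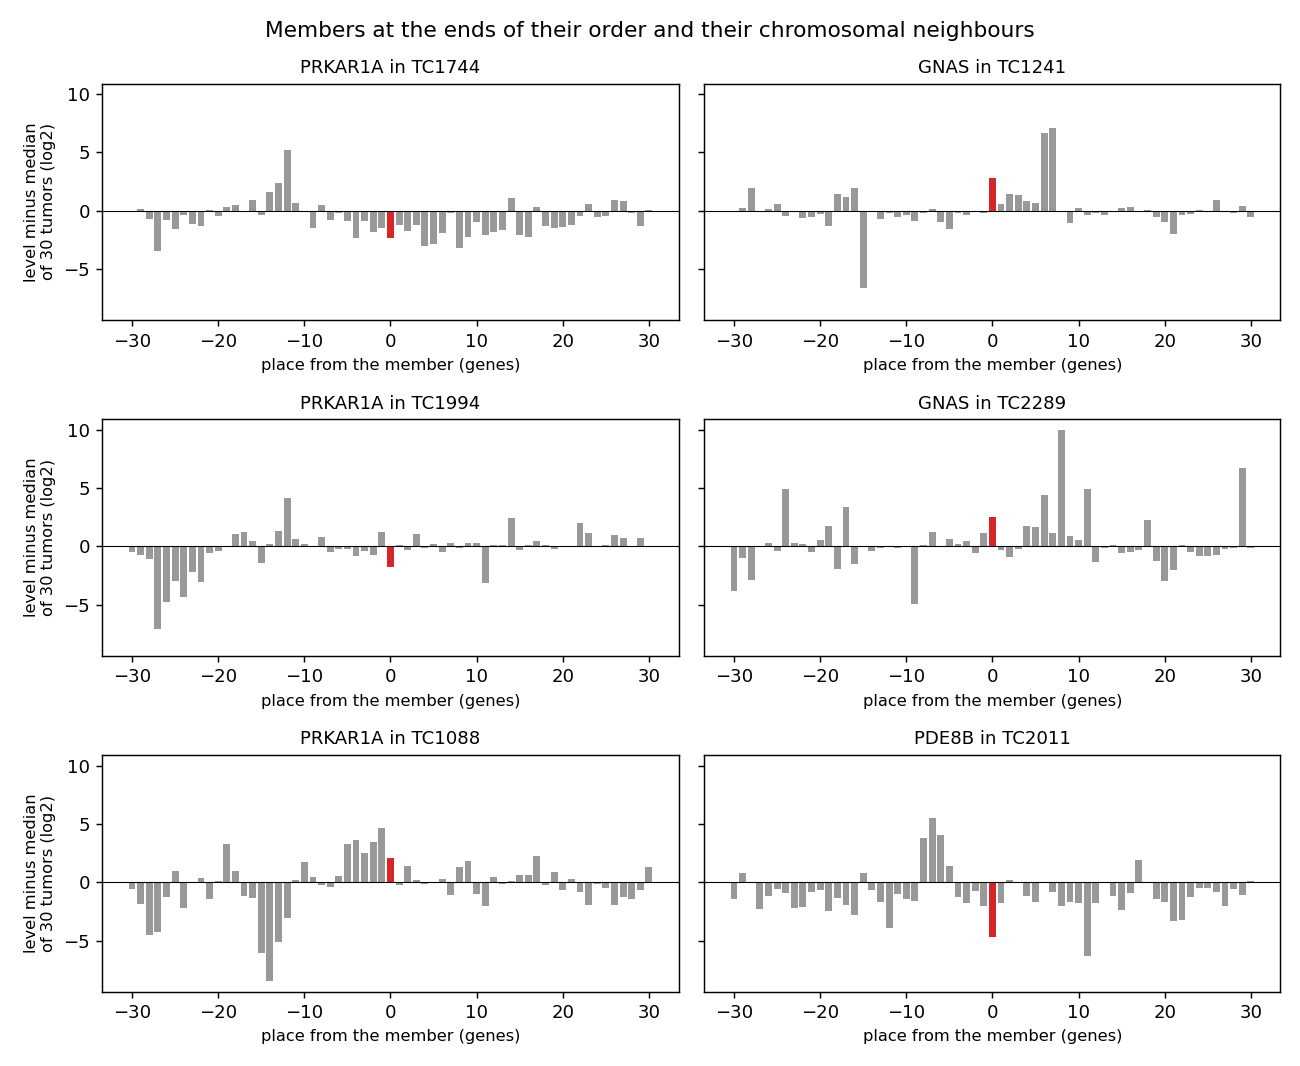
Difference of each gene's level from its median over 30 tumors (log2, vertical axis) for the 30 genes on each side of the member along the chromosome (place in gene order, horizontal axis), for 6 combinations of gene and tumor; the member is the red bar. In TC1744 the bars nearest to PRKAR1A lie below 0 on both sides, whereas in TC1994 the nearest bars lie on either side of 0. Farther out, on the side away from GNA13, bars above 0 are also present in TC1744. The farthest bars on that side lie below 0 in TC1994.

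Within the 25 tumors of the larger branch, each member was correlated with all 18105 other genes that passed the filter (Spearman's rho, permutation test, Benjamini-Hochberg adjustment over those genes). A large share of the transcriptome followed some members: 26.3% of genes passed an adjusted p of 0.05 with GNAS, 36.8% with PRKACA, 25.6% with PRKACB, 20.6% with PDE4D, 24% with CREM and 15.2% with NR4A1. For PDE4B the share was 0.122% and for PDE8B 0.0608%. With PRKAR1A and PRKAR2B, 0 genes passed by this test. At an unadjusted p under 0.05 there were 1006 of the 18105 genes with PRKAR1A and 1726 with PRKAR2B, against 7038 with GNAS. The quasi-likelihood test of edgeR with the member as covariate gave 292 and 247, against 1372 with GNAS. Counts of members that passed have to be read against these shares. With GNAS as the reference gene, 5 of the 9 other members passed, PRKACA, PRKACB, PDE4D, CREM and NR4A1. Taken as the reference, PRKACA, PRKACB, PDE4D and CREM each passed with 2.

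Requiring an adjusted p below 0.05 with each of the 2 genes of a pair as the reference, 6 of the 45 pairs of members were called, and by the same rule 6.76% of all pairs of genes were. The catalytic subunits ran against each other: PRKACA and PRKACB had a rho of -0.67 (permutation p = 0.00029, adjusted p = 0.00462) and a Pearson's r of -0.75 (p = 4e-05). Without TC538 and TC1744, the tumors farthest from the PRKACA median, r was -0.60 (p = 0.00268). GNAS and PRKACA rose together, with a rho of 0.66 (permutation p = 0.00046, adjusted p = 0.0058), and their Pearson's r was 0.58 (p = 0.00302). With TC1241 and TC1088 left out, the r of GNAS and PRKACA was 0.66 (p = 0.00054). PDE4D and CREM, an enzyme that removes cAMP and a factor that acts after it, rose together with a rho of 0.64 (permutation p = 0.00071, adjusted p = 0.00992) and an r of 0.75 (p = 2e-05). Without TC67 and TC538 that r was 0.59 (p = 0.00252).

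**Figure D3:**
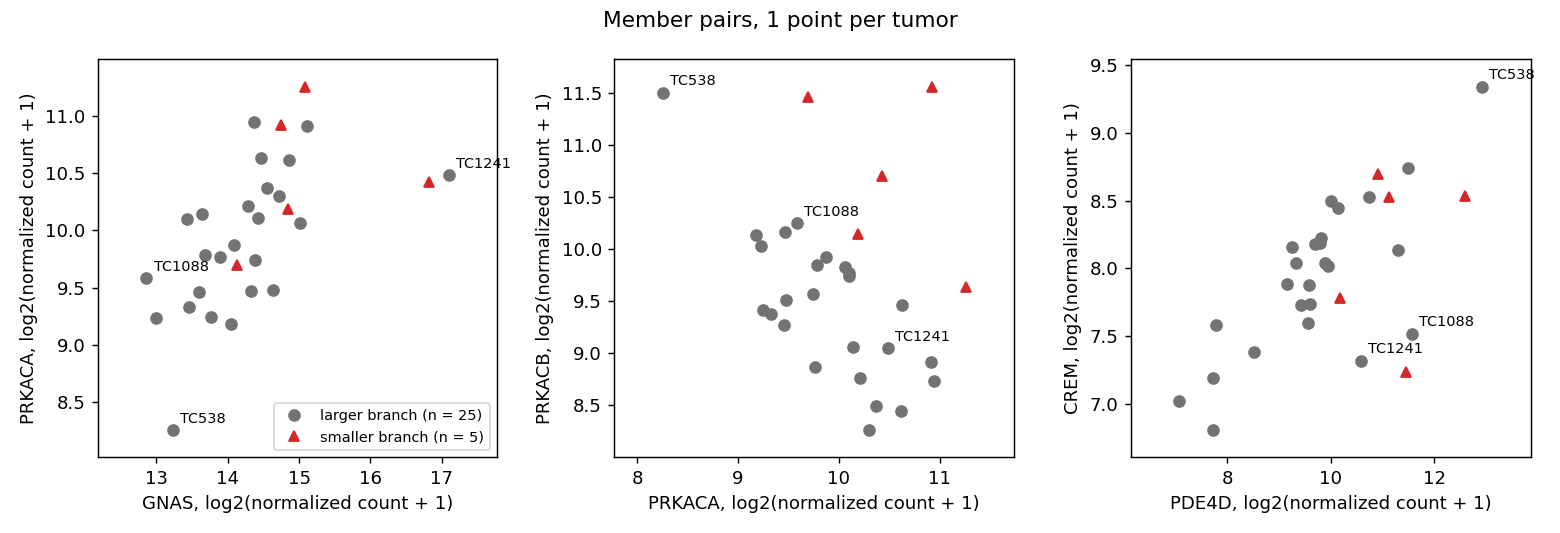
Levels (log2 of normalized count plus 1) of 3 pairs of members, 1 point per tumor, with the 25 tumors of the larger branch as circles and the 5 of the smaller branch as triangles. TC538 lies at the end of the PRKACA and PRKACB pair and of the PDE4D and CREM pair, and TC1241 lies to the right for GNAS.

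The other called pairs joined GNAS to members that fell as it rose. GNAS had a rho of -0.53 with PDE4D (permutation p = 0.00741, adjusted p = 0.0407; r = -0.36, p = 0.0766). With CREM the rho of GNAS was -0.53 (permutation p = 0.00761, adjusted p = 0.0373; r = -0.47, p = 0.0202). With PRKACB it was -0.50 (permutation p = 0.0122, adjusted p = 0.0483; r = -0.45, p = 0.0268). Without TC1088 and TC1241 the r was -0.61 with PDE4D (p = 0.00194), -0.58 with CREM (p = 0.00382) and -0.49 with PRKACB (p = 0.0175). These 3 calls were close to the threshold: of 13 alternative settings the call was lost in 8 for PDE4D, in 6 for CREM and in 9 for PRKACB. GNAS and NR4A1 had a rho of 0.52 (permutation p = 0.00773, adjusted p = 0.0504; r = 0.34 and adjusted p = 0.239 by Pearson's coefficient) and were not called. PRKAR1A, PRKAR2B, PDE4B and PDE8B were in no called pair.

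PRKACA with PRKACB and PDE4D with CREM were called in 12 of 13 alternatives, also without TC538 (rho -0.63, adjusted p = 0.0164, and 0.59, adjusted p = 0.0334, permutation test). GNAS with PRKACA was called in 10. The 13 include a larger pseudocount, the value added before log2, which kept the order of the same 25 tumors. That setting could not change rho, so its unchanged calls carry no support. The alternative in which all 6 calls were lost was the removal of the first principal component, the axis along which the 25 tumors differed most and which held 20.7% of the variance. With it regressed out, the rho was -0.06 for PRKACA with PRKACB, 0.07 for GNAS with PRKACA and 0.49 for PDE4D with CREM. The members lay at both ends of that axis: rho with its score was 0.85 for PRKACA, 0.77 for GNAS and 0.70 for NR4A1, and -0.72 for PRKACB, -0.67 for PDE4D and -0.62 for CREM. PRKAR1A (0.12) and PDE8B (-0.10) followed it little. The 6 called pairs thus joined genes that lay along the main axis of these tumors, as did a large share of all genes. The correlation coefficient with the size factor was 0.44 for GNAS and -0.45 for PDE4D (Spearman), and its part in the correlations was not tested. Among the marker sums, PRKACA had a rho of 0.62 with PLIN1, the adipocyte marker measured, PRKACB one of -0.51 with the 4 muscle markers, and PDE8B one of -0.56 with the 3 parathyroid markers PTH, GCM2 and CASR. The parathyroid sum ran from 2.42 to 14.84 in the 25 tumors, and over all 30 GCM2 was at 0 in 16 and PTH in 3. PLIN1 ran from 0 in TC538 to 7.35, and the part of these cells in the results was not tested.

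**Figure D4:**
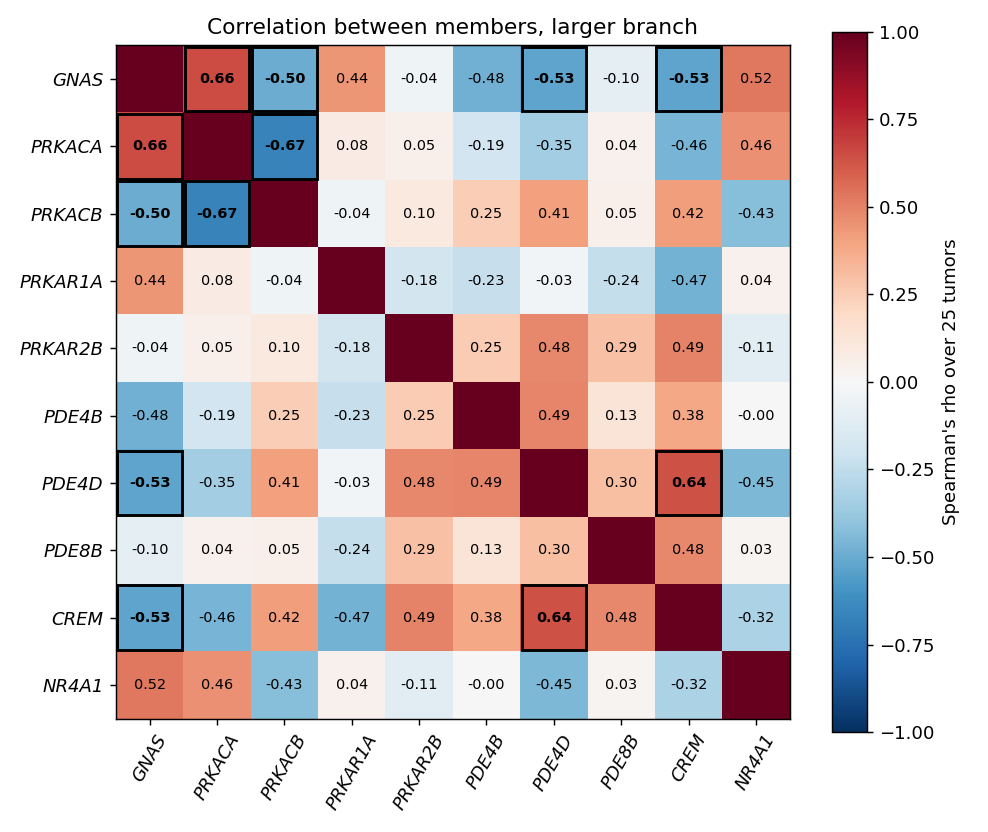
Spearman's rho between the 10 members over the 25 tumors of the larger branch, coloured from negative to positive, with the 6 called pairs marked. GNAS, PRKACA and NR4A1 had a positive rho with each other and a negative rho with PRKACB, PDE4D and CREM.

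The genes most like each member were named by rho, over the same 25 tumors, leaving out genes without a symbol or with a median below 100 normalized counts. PRKACA was closest to PIAS4, a SUMO ligase gene, and to NDUFB7 and MRPL54, of mitochondrial complex I and the mitochondrial ribosome, each with a rho of 0.96 (permutation test, adjusted p = 0.000135). GNAS was closest to another mitochondrial ribosome gene, MRPL14 (0.89), and to TRAF4 and SLC35C2 (both 0.86, adjusted p = 0.000875). PRKACB was closest to MRPL3 (0.89), to NR1D2, a nuclear receptor gene of the circadian clock (0.87), and to TAF2 (0.86). PDE4D was closest to PLXDC2 (0.85), to the deubiquitinase gene CYLD (0.84) and to MIER1 (0.83), and CREM to RAP1A (0.85), PHTF1 (0.84) and LARP7 (0.83). PDE4B was closest to GNB4, a G protein beta subunit gene (0.78), CDK6 (0.78) and the endothelin receptor gene EDNRA (0.76), with an adjusted p of 0.0362 each. PDE8B was closest to EMC3 (0.79), CNTN3 (0.76) and KIAA0232 (0.76), with an adjusted p of 0.0259 each. NR4A1 was closest to GAA, the lysosomal alpha-glucosidase gene (0.83), TNFAIP1 (0.83) and TOR1A (0.80). For PRKAR1A (FAM160B2 at 0.70, SP1 at 0.64, CALCOCO1 at 0.64) and PRKAR2B (SASH1 at 0.73, HS6ST3 and NR3C2 at 0.66) the closest genes did not pass the test.

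The rest of the pathway was read from 7 lists of 90 genes, of which 86 were in the table. With GNAS, the share of all genes called was 12.7% in the positive and 13.6% in the negative direction. Among 19 receptors and G protein subunits tested, 2 rose and 3 fell with GNAS: the beta subunit gene GNB2 rose (rho 0.80, permutation p = 1e-05, the smallest the permutations can give, adjusted p = 0.000875), as did GNAI2, an inhibitory alpha subunit (0.59). GNAQ (-0.68), RIC8B, a chaperone of the stimulatory alpha subunit (-0.61), and GNAI3 (-0.53) fell. Of 9 adenylyl cyclases only ADCY6 passed (0.55, adjusted p = 0.024). Of 15 other PKA subunits, inhibitors and anchors, the anchoring protein genes AKAP11 (-0.66), AKAP9 (-0.64), AKAP5 (-0.56) and AKAP10 (-0.56) fell with GNAS, and AKAP1, the mitochondrial anchor, rose (0.52).

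Of the 13 other phosphodiesterases tested, 1 fell with GNAS, PDE7A (-0.53), and 0 rose. Among 11 CREB factors, coactivators and SIK kinases, CREB1, which encodes the main factor phosphorylated by PKA, fell (-0.68, permutation test, adjusted p = 0.00319) and CREB3, a membrane-bound relative, rose (0.64). RAPGEF3, the gene of the cAMP-activated exchange factor EPAC1, rose with GNAS (0.75, permutation test, adjusted p = 0.00122; r = 0.71, and 0.69 without TC1088 and TC1241). The other 3 cAMP effectors tested did not pass. TSHR, the receptor at the head of the pathway, did not pass with GNAS (rho -0.16, permutation test, adjusted p = 0.587) or with NR4A1 (-0.23, adjusted p = 0.424). Without TC538, 2 receptors and G protein subunits rose and 2 fell with GNAS, 0 cyclases passed, 0 PKA genes rose and 3 fell, and 0 phosphodiesterases passed. In that setting 9.25% of all genes rose and 10.4% fell with GNAS. For most lists the counts with GNAS lay near the background shares in both directions.

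With NR4A1, 6.76% of all genes were called in the positive and 8.4% in the negative direction. The immediate-early and cAMP-responsive targets were the list with the highest count: 10 of 14 genes tested rose with NR4A1, 0 fell, and all 14 had a rho above 0 with a median of 0.55, against 0.03 over all genes. ZFP36, an mRNA decay factor gene, had a rho of 0.71 (permutation p = 6e-05, adjusted p = 0.00639; r = 0.68, and 0.59 without the tumors farthest from the NR4A1 median). JUNB had a rho of 0.68, IER2 0.65, FOSB 0.63, FOS 0.63 and DUSP1 0.60, and the NR4A paralogs NR4A2 (0.55) and NR4A3 (0.54) were called as well. With GNAS, 3 genes of this list rose (IER2 at 0.66, JUNB at 0.56 and ZFP36 at 0.52). A rho above 0 with GNAS was found for 13 of 14, and the list's median rho was 0.15, against 0.04 over all genes. Without TC538 the count called with GNAS was 1, and 11 of 14 had a rho above 0, while 9.25% of all genes rose with GNAS.

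The count of 10 depended most on TC538, the tumor lowest in NR4A1. Without TC538, 3 of 14 genes were called with a positive rho, while 1.15% of all genes were, and 1.34% with a negative rho. Without TC640, the next lowest, the count was 8, and without TC1088 it was 9, with 8.29% and 4.21% of all genes called with a positive rho. Without TC538 and TC1088 it was 0 of 14, while 0.039% of all genes were called in that direction. The shares of all genes called with a negative rho in these 3 settings were 10%, 5.54% and 0.111%. The median rho of the list was 0.53 without TC538 and 0.59 without TC538 and TC1088. With the first principal component regressed out, 0 of 14 genes were called, and their median rho was 0.41 with 13 of 14 above 0. The calls were therefore lost while the list's median rho stayed above 0.4. NR4A1 also followed the summed markers of other cells: rho was 0.60 for C cells, 0.60 for skeletal muscle, 0.59 for endothelial cells, 0.57 for fibroblasts and 0.06 for leukocytes. The ranges of these sums over the 25 tumors were 5.42 to 13.13 for the 5 C cell markers, 8.91 to 12.31 for the 4 muscle markers, 11.93 to 14.77 for the 4 endothelial markers and 10.98 to 15.93 for the 5 fibroblast markers. Over the 30 tumors CALCA was at 0 in 2 tumors, CALCB in 13, SCG2 in 7 and the fibroblast marker DCN in 1, and no muscle or endothelial marker was at 0. Their part in the correlations of NR4A1 was not tested.

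**Figure D5:**
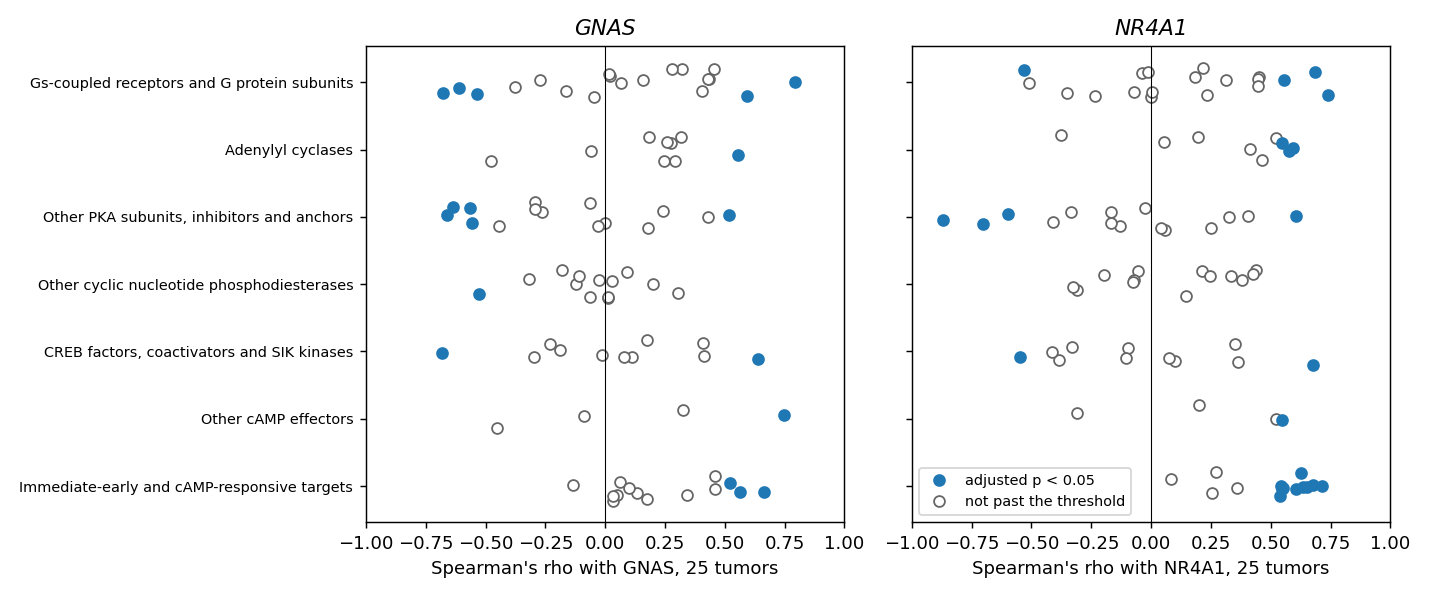
Spearman's rho of the genes of 7 pathway lists (rows) with GNAS and with NR4A1 over 25 tumors, 1 point per gene, filled where the adjusted p was below 0.05. The immediate-early genes lie to the right of 0 for NR4A1, and the other lists spread on both sides of 0.

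Other lists had fewer calls with NR4A1. VIPR2, a receptor for vasoactive intestinal peptide, rose (rho 0.74, permutation p = 3e-05, adjusted p = 0.00508), as did GNB2 (0.69) and GNAI2 (0.55), and GNAI3 fell (-0.53), among 19 receptors and G protein subunits. The cyclase genes ADCY7 (0.59), ADCY3 (0.57) and ADCY6 (0.55) rose, 3 of 9 tested, but 2 were called without TC1088 and 0 without TC538. AKAP10 had the most negative rho of the pathway genes, -0.87 (permutation p = 1e-05, adjusted p = 0.00411; r = -0.84, and -0.79 without the tumors farthest from the NR4A1 median), and AKAP11 (-0.70) and AKAP9 (-0.60) fell too. PKIG, a PKA inhibitor gene, rose (0.61). Of the CREB list CREB3 rose (0.68) and CREB1 fell (-0.55), RAPGEF3 rose (0.55), and 0 of 13 other phosphodiesterases passed. At an unadjusted permutation p under 0.05 there were 2 of these, PDE1B (rho 0.44, p = 0.0303) and PDE2A (0.43, p = 0.0344), and edgeR's test called 2 that rose and 1 that fell. Of all 18105 genes, 6142 had an unadjusted p under 0.05 with NR4A1. By edgeR's test 10.9% of all genes rose and 19.5% fell with it. Without TC538, 2 rose and 0 fell of the 19 receptors and G protein subunits, 0 rose and 2 fell of the 15 PKA genes, 1 rose and 0 fell of the 11 CREB genes, and 0 of the 4 other effectors passed.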

How the data were processed

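RNA from 30 primary canine thyroid tumors was sequenced from 1 total RNA library each. The authors removed ribosomal RNA with a library kit, aligned reads with STAR on the CanFam3.1 genome and deposited raw counts per Ensembl gene in 1 table, with a symbol for 15780 of the 30424 genes. The strand setting and the treatment of reads shared by close copies are not given in the sources used here, so overlapping genes, as at the GNAS locus, and paralogs are uncertain. The labels give no batch or date. The labels put all tumors in 1 group, so no p-value compares groups. Each p-value concerns the association of a member with another gene across tumors.

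From the deposited counts, levels were computed as log2 of the count over a median-of-ratios size factor (15611 genes counted in every tumor) plus 1. Spearman's correlation between tumors over genes was 0.797 to 0.959, and no libraries held the same values (0 pairs). The table had 0 columns of no sample. Branches were cut from Ward linkage on genes whose level had a mean over 2 and a variance over 6. Within the 25 tumors, rho was tested with 100000 two-sided permutations over genes that reached 10 counts in 5 or more tumors, so that 1e-05 was the smallest p. Adjustment was by Benjamini-Hochberg over all 18105 genes tested against a member. Counting intervals were not needed for levels, and depth limits the low counts of PDE8B and NR4A1. Alternatives were TMM scaling, a pseudocount of 8, no filter, a filter at 100 counts, Pearson's r, ranks centred within branches over all 30 tumors, edgeR's quasi-likelihood test (edgeR 4.0.16, R 4.3.3), average linkage, and leaving out TC1088 or TC538. Added after seeing the data were leaving out TC1241, TC640 or both TC538 and TC1088, and regressing out the first principal component. Python 3.11.15 with numpy 2.4.6, scipy 1.17.1, pandas 2.3.3 and matplotlib 3.10.9 was used. Counts were also simulated for each gene independently, without the axis that the real tumors share. With a slope of 1 log2 unit per standard deviation, the test against GNAS called 88 of 100 such genes. It called 11 of 100 at 0.5, and 3 of 17906 with none. The real genes vary together, so these shares do not give the rate of false calls in the real data.

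The members and gene lists were chosen with earlier results of these data known. Named were all members, the 3 genes with a symbol most like each member at a median normalized count of at least 100, up to 4 genes per pathway list with the smallest adjusted p with GNAS or NR4A1, and the tumors at the ends of each order. TSHR, other genes of the lists and chromosomal neighbours were named outside this rule, after their values were seen. Neighbours were ordered by symbol for 13300 genes that passed the filter, with the RefSeq table of UU_Cfam_GSD_1.0, from which no coordinates were used.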

Additional observations from a re-analysis of the deposited data

How the results depend on the processing

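No paired analysis was possible because the labels give 1 group of tumors and no replicate number that groups share. The 6 called pairs of members became 3 with no count filter, 3 without TC538 and 0 with the first principal component regressed out, and ranged from 4 to 8 in the others. Of the 4766 genes correlated with GNAS, Pearson's r gave 123, edgeR's test 1372 and regression on the first component 0, while the other settings gave 3389 to 5013. For NR4A1 the 2745 genes became 6077 by Pearson's r, 5508 by edgeR, 1755 without TC1088, 450 without TC538, 27 without both TC538 and TC1088, and 0 with the first component regressed out. The count for NR4A1 thus rested on TC538 more than on any other tumor left out. With the first component regressed out, rho changed sign for GNAS with PRKACB (0.12) and GNAS with CREM (0.0385), neither past the threshold. Why a count moved was not tested, and some settings also held fewer tumors or genes. The larger branch held the same 25 tumors with a pseudocount of 8 (279 genes) and with average linkage. The median levels of the 10 members moved by less than their standard deviations with TMM or a pseudocount of 8.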

Other observations

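The 5 tumors of the smaller branch, TC1020, TC1473, TC1601, TC1936 and TC2289, are not a group of the labels, and the members' levels in them are given as a description without a test. Over all 18711 genes, 2.13% did not overlap between the branches, and 0 of the 10 members were among them. PRKACB had levels of 10.14, 11.46, 9.63, 11.56 and 10.71 in these tumors, in the order named, against a median of 9.46 in the 25 others, of which 1 (TC538) exceeded the smaller branch's median. PDE4D had 11.44, 12.59, 10.18, 11.12 and 10.91 against a median of 9.70. PDE4B had a median of 8.63 against 7.35, and PDE8B one of 8.51 against 9.63, with TC1936 at 5.03.

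Of the 86 other genes of the pathway lists, 2 did not overlap between the branches, a share near the 2.13% of all genes. PDE3B, a phosphodiesterase gene known from insulin action in fat, ran from 8.62 to 13.16 in the 5 tumors and from 3.82 to 8.30 in the 25. ADCY1, a calcium-stimulated adenylyl cyclase gene of neuronal and neuroendocrine cells, ran from 10.54 to 12.83 and from 6.03 to 8.83. PKIA, a PKA inhibitor gene, had medians of 7.59 and 1.85, PDE4C of 9.83 and 4.03, and AKAP12 of 11.38 and 8.85. In the other direction, TSHR had medians of 10.83 in the 5 tumors and 12.52 in the 25, and RAPGEF3 of 10.44 and 12.76. The branches were drawn from the same tumors, so these values describe them and do not show what sets the branches apart. The 7 genes named here beside the members were chosen after their values were seen.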
